A study of Mus musculus with 8 samples.

Results

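The genes described here belong to the ubiquitin-proteasome system. They are the protein-coding genes whose symbols start with Psm, Ube, Usp, Rnf, Fbx, Trim or Cul, together with Stub1, and 39 of the 2372 genes by the authors' deposited table met that rule. The mouse annotation (GENCODE M21) holds 392 such genes. The table lists only genes with an unadjusted p below 0.05 between genotypes, so a listed gene had already passed that threshold and the other 353 have no value here. Of the 39 listed members, 10 were proteasome genes, 3 were conjugating enzymes, 24 were ubiquitin ligases or ligase subunits and 2 were deubiquitinases. Of the conjugating enzymes, Ube2m and Ube2f act on the ubiquitin-like protein NEDD8, and Ube2j2 acts on ubiquitin.

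In this system a small protein, ubiquitin, is activated, handed to a conjugating enzyme and attached to a target by a ligase, which chooses the target. Chains of ubiquitin mark many proteins for the proteasome, a barrel-shaped protease (the 20S core) capped by a regulatory particle (19S) that unfolds its substrates, and deubiquitinases remove the chains. In neurons the system turns over synaptic proteins and misfolded proteins.

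The tissue was medial prefrontal cortex (mPFC), taken from 8 untreated adult male mice on a C57Bl/6J background, and its RNA was sequenced in bulk. The 4 CaKO mice carried CamK2A-Cre and a floxed Gpr158 gene on both alleles (CamK2A-Cre;Gpr158flox/flox), and the 4 control littermates carried the floxed alleles with no Cre. The CamK2A promoter drives Cre in forebrain excitatory neurons, so that other cells of the bulk tissue keep the orphan receptor gene. The values used were the read counts of the 4 CaKO libraries, normalised by 1 factor per library, and the fold change and p of the authors' comparison with control.

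The control libraries' own values were not used here. An implied control level, the CaKO mean divided by the deposited fold change, stands in for them and has no spread of its own. Reads over the listed genes ranged from 2832931 to 3183638 per CaKO library, and those over the 39 members from 52185 to 55269. No row overlapped Gpr158, the gene deleted in CaKO. Since only genes with an unadjusted p below 0.05 are listed, Gpr158 either did not reach that threshold or had no p-value. Whether the CaKO libraries had less of its transcript could therefore not be seen here, and the genotype of each library is taken as labelled. The pyramidal neuron gene Nrgn averaged 12792 ± 2552 normalised counts (SD, n = 4) and Camk2a 46288 ± 5735 (SD, n = 4). Nrgn fell by 0.50 on the log2 scale (adjusted p = 0.0238), while Camk2a was at -0.20 (adjusted p = 0.316), by the authors' deposited table. Markers of several cell types were lower in CaKO at an unadjusted p below 0.05. This held for 8 of 8 oligodendrocyte markers, whose summed CaKO counts ranged from 36676 to 44835 against an implied control sum of 58558, and for 5 of 8 pyramidal neuron markers (52093 to 72215, implied control 79608), 3 of 8 astrocyte markers (9798 to 12287, implied control 14420) and 3 of 6 oligodendrocyte precursor markers (2118 to 3058, implied control 3958). None of these listed markers was at 0. Of 6 meningeal markers 2 were higher and 1 lower (summed CaKO counts 6598 to 7774, implied control 5730), 2 of 5 endothelial and 3 of 4 red blood cell markers were lower, and no interneuron or microglia marker (6 each) was listed. Their part in the results on ubiquitin genes was not tested, and in bulk tissue fewer cells of a type and less RNA per cell cannot be told apart.

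In CaKO cortex 4 members rose and 2 fell. In the authors' deposited table, at an adjusted p below 0.05, Psmb5, Psmc5, Stub1 and Trim35 rose and Rnf122 and Ube2m fell. The table called 1.27% of the 12938 genes in its adjustment as risen and 1.97% as fallen, 3.24% in all. The 6 calls are 1.53% of the 392 annotated members, a share that also counts members that may not have entered the adjustment. At an unadjusted p below 0.05, 21 members were higher (5.36% of those annotated, against 7.14% of all genes in the adjustment) and 18 were lower (4.59%, against 8.68%). Both shares lay below those of all genes, but they too count members that may not have entered the adjustment. The same holds for the shares of annotated genes given below, so none is strictly comparable with that of all genes. When log2 fold changes were centred on the median of the listed genes (-0.22), 21 members passed as higher and 1 as lower, a setting that treats a median over genes with a p below 0.05 as no change. Centring raises the fold change of every listed gene alike, and the matching share of all listed genes is not given here. Fold changes were small. The authors' deposited table gave a difference of over 1.5-fold for 6 members (15.4%, against 12.8% of all listed genes in the adjustment). Among the protein-coding genes of these, as all members are, the share was 10.5%. The median log2 fold change was 0.30 for higher members and -0.28 for lower ones, against 0.31 and -0.37 for all listed genes in the adjustment, by the authors' deposited table. For the protein-coding ones the medians were 0.30 and -0.36.

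**Figure D1:**
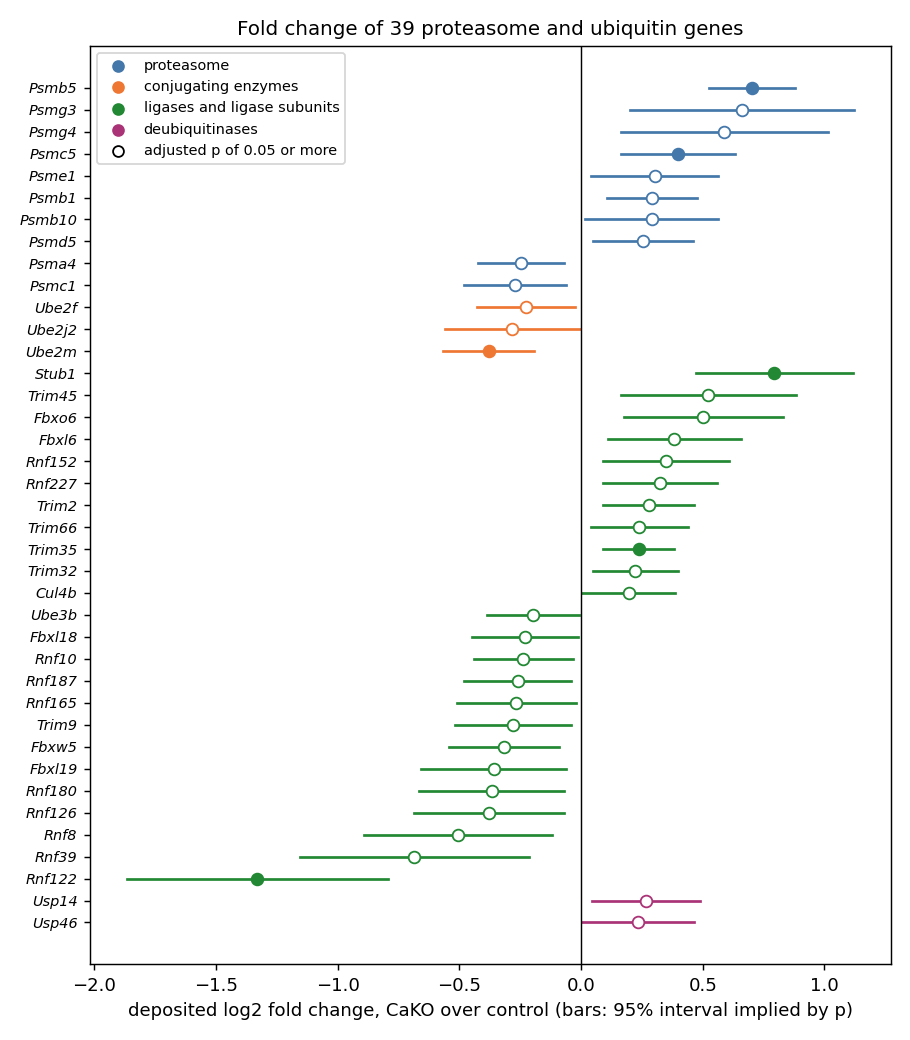
Deposited log2 fold change (CaKO over control, horizontal axis) of the 39 listed members by class, with bars for the 95% interval implied by the deposited p and filled points for an adjusted p below 0.05. The 10 proteasome genes lie mostly to the right of 0 (8 of 10), the 3 conjugating enzymes lie to the left, and the 24 ligases and ligase subunits lie on both sides.

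By class, proteasome genes were 8 higher and 2 lower, which is 16.0% and 4.0% of the 50 annotated Psm genes against 7.14% and 8.68% of all genes. All 3 listed conjugating enzymes were lower (8.11% of 37, near the 8.68% of all genes). Ligases and ligase subunits were 11 higher and 13 lower (4.44% and 5.24% of 248), and both listed deubiquitinases were higher (3.51% of 57, against 7.14%). Median log2 fold changes were 0.30 for the proteasome, -0.28 for conjugating enzymes, -0.21 for ligases and 0.25 for deubiquitinases by the authors' deposited table, and -0.22 for all listed genes in the adjustment. No test was made between the classes, since listing itself depends on the p of each gene.

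The clearest change in the proteasome was in its chymotrypsin-like protease subunit. Psmb5 (chromosome 14: 54614119 to 54618022, GRCm38) encodes that subunit of the inner beta ring of the 20S core. It had 902, 1015, 1017 and 994 normalised counts in CaKO replicates 1 to 4, against an implied control level of 603. All 4 libraries lay far above that level and close to each other. Psmb5 rose 1.63-fold by the authors' deposited table (log2 fold change 0.70, implied SE 0.09, adjusted p = 4.89e-11). A processed pseudogene on another chromosome, Gm3375, is a near-identical copy that could share its reads. Psmc5, an ATPase of the 19S base that helps unfold substrates (chromosome 11: 106256154 to 106263120), had 1666, 1963, 2428 and 2175 normalised counts against an implied 1562. Its lowest library lay just above the implied control level. It rose 1.32-fold by the authors' deposited table (log2 fold change 0.40, implied SE 0.12, adjusted p = 0.035), a call that ended without CaKO replicate 3 (0.31) or 4 (0.37). Centred on the median of the listed genes, the log2 fold change was 0.62.

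The remaining proteasome genes did not pass the adjusted threshold. Psmb1, a non-catalytic subunit of the same beta ring, stood just outside it, at 1591 ± 169 normalised counts (SD, n = 4) and a log2 fold change of 0.29 (adjusted p = 0.0547) by the authors' deposited table. The gene just inside the threshold was Trim35 (adjusted p = 0.0477 by the authors' deposited table). Psmg3 and Psmg4 encode chaperones that assemble the 20S core, and both were scarce, at 75.1 ± 15.0 and 73.8 ± 8.46 (SD, n = 4). By the authors' deposited table, their log2 fold changes were 0.66 (adjusted p = 0.0962) and 0.59 (adjusted p = 0.113). Psmd5, a chaperone that assembles the 19S base, was at 0.26. The immunoproteasome subunit Psmb10 and the activator subunit Psme1 were at 0.29 and 0.30 by the authors' deposited table. The lower pair came from the core particle's outer ring and the 19S base. Psma4, a subunit of the alpha ring through which substrates enter, averaged 647 ± 27.5 (SD, n = 4) with a log2 fold change of -0.25 (adjusted p = 0.109), and Psmc1, an ATPase like Psmc5, averaged 1240 ± 142 (SD, n = 4) with -0.27 (adjusted p = 0.144), both by the authors' deposited table. Psmc1 too has a near-identical pseudogene, Gm9575.

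By subcomplex, where 15.8% of all genes in the adjustment were listed, the listed genes were 1 of 8 alpha-ring genes (12.5%), 2 of 7 constitutive beta-ring genes (28.6%), 2 of 6 ATPases of the 19S base (33.3%), 3 of 11 assembly genes (27.3%, Psmg3, Psmg4 and Psmd5) and 2 of 17 non-ATPase genes (11.8%) of the 19S particle, Psmd5 (counted here with the subunits) and Sem1, which was at a log2 fold change of -0.28 by the authors' deposited table. Of 10 regulators of proteasome transcription, Nfe2l1 and Nfe2l2 among them, 0 were in the table. Per kilobase of exon, the CaKO levels of the 10 Psm genes ran from 26.0 normalised counts for Psmg3 to 1476 for Psmc5. Psmb5 came next to Psmc5 at 1092 ± 60.7, followed by Psmc1 at 641 ± 73.5 and Psmb1 at 346 ± 36.8 (SD, n = 4). Psma4 (273 ± 11.6) and Psmb10 (261 ± 37.7) did not differ beyond their spread, nor did Psmd5 (140 ± 15.0), Psme1 (137 ± 16.9) and Psmg4 (133 ± 15.2). These levels use the annotated exon length, which can exceed that of the transcripts in use.

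The promoters of the called members are shown because genes of the proteasome are known to share control elements near their starts. RefSeq promoter windows (GRCm38.p6, 250 bases before to 50 after a transcript start) matched 32 of the 39 members, and 4 of the 6 called ones. Each window is written 5′ to 3′ on the gene's strand with matches to 4 motifs in capitals. Psmb5 is on the minus strand (chr14:54617946-54618245), Psmc5 on the plus strand (chr11:106255935-106256234), Ube2m on the minus strand (chr7:13038226-13038525) and Stub1 on the minus strand (chr17:25832870-25833169).
Psmb5: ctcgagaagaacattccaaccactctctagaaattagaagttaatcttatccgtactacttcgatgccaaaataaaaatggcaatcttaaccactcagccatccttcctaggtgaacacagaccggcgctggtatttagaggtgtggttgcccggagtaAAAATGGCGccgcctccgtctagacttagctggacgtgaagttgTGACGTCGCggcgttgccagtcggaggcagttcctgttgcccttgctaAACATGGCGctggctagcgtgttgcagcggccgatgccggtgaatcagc
Psmc5: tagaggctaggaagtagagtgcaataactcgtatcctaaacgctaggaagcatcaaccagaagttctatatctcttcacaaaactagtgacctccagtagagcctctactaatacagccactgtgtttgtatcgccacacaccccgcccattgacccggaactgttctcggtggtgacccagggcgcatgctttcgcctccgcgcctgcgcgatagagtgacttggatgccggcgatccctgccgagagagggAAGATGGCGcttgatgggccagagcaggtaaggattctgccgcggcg
Ube2m: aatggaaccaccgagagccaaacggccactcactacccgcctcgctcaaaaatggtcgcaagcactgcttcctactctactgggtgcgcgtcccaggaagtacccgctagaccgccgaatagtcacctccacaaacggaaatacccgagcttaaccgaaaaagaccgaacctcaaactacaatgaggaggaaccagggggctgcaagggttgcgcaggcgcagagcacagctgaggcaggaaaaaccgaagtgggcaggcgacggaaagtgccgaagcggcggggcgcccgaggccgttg
Stub1: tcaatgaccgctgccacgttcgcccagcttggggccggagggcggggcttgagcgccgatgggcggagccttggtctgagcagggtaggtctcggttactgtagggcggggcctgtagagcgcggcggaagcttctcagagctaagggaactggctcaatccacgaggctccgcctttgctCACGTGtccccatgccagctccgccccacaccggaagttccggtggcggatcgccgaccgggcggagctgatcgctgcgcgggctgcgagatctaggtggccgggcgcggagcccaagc
The motifs, searched on both strands, were TGACNNNGC (the core of the antioxidant response element, which Nfe2l1 and Nfe2l2 bind), CCAAT (the binding site of NF-Y), CACGTG (an E-box) and AANATGGCG (the core of the YY1 motif, added after the sequences had been seen). Psmb5 held TGACNNNGC as TGACGTCGC at -47 from the RefSeq start. It also held AANATGGCG at -91 and at 1, and Psmc5 held that motif at 3. The matches at 1 and 3 lie after the RefSeq start, in transcribed sequence, and the motif contains ATG. Whether either is a start codon was not checked. Stub1 held CACGTG at -69 from its RefSeq start. That start lies 442 bases from the annotated gene start, so the whole Stub1 window falls inside the annotated gene. Ube2m has 3 windows, of which the one nearest the annotated gene start is shown, and none held any of the 4 motifs. Over all 27025 genes with a window, TGACNNNGC was present in 14.0%, CCAAT in 41.1%, CACGTG in 8.09% and AANATGGCG in 2.76%. Among the members with a window, 5 of 32 held TGACNNNGC (2 of 16 higher and 3 of 16 lower), 10 held CCAAT, 3 held CACGTG and 3 held AANATGGCG (Psmb5, Psmc5 and Fbxl18). Since AANATGGCG was chosen with these windows known, its count among members cannot be weighed against its share of all genes.

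The enzymes that conjugate NEDD8, a ubiquitin-like protein that switches on cullin ligases, were both lower. Ube2m (chromosome 7: 13035120 to 13038275), which serves most cullins, had 1215, 1260, 1029 and 1205 normalised counts in CaKO replicates 1 to 4, against an implied control level of 1532. Every library lay below that level, replicate 3 the furthest. It fell by 0.38 on the log2 scale by the authors' deposited table (implied SE 0.10, adjusted p = 0.00729), and the call ended without CaKO replicate 3, at -0.32. It also ended when fold changes were centred on the median of the listed genes, at -0.16. Ube2f, the other NEDD8-conjugating enzyme, averaged 650 ± 70.1 (SD, n = 4). Its log2 fold change of -0.23 did not pass (adjusted p = 0.244 by the authors' deposited table). Ube2j2, which works in the degradation of proteins from the endoplasmic reticulum, averaged 341 ± 52.3 (SD, n = 4) and did not pass either, at -0.28 (adjusted p = 0.307 by the authors' deposited table). Ube2f and Ube2j2 each have a near-identical pseudogene.

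Stub1 and Rnf122 had the largest log2 fold changes of the ligases. Stub1 (chromosome 17: 25830636 to 25833361) encodes a ligase that ubiquitinates clients held by Hsp70 and Hsp90 chaperones. Its CaKO libraries had 531, 594, 741 and 852 normalised counts, all above an implied control level of 392. The highest lay well apart from the lowest, so the spread was wide. Stub1 rose 1.73-fold by the authors' deposited table (log2 fold change 0.79, implied SE 0.16, adjusted p = 0.000435), and its value stayed between 0.67 and 0.90 when each CaKO library was left out. Jmjd8, on the opposite strand, covers 42.3% of the exon sequence of Stub1. It fell by 0.59 on the log2 scale by the authors' deposited table (adjusted p = 0.0388), the opposite direction. The sources used here do not say whether counting used strand, so reads of the 2 genes may not be told apart.

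Rnf122 (chromosome 8: 31111820 to 31131482), a membrane RING-finger ligase, had 63.3, 30.1, 28.8 and 30.2 normalised counts in CaKO replicates 1 to 4, against an implied control level of 95.8. Replicate 1 stood about midway between the other libraries and the control level. Rnf122 fell to 39.8% of control by the authors' deposited table (log2 fold change -1.33, implied SE 0.27, adjusted p = 0.000371). Its log2 fold change was -1.69 without replicate 1 and between -1.23 and -1.22 without any of the others. It was also the least abundant of the members, at 4.23 normalised counts per kilobase.

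With Rnf122, 8 of the 87 annotated Rnf genes were lower (9.20%, near the 8.68% of all genes) and 2 were higher (2.30%, against 7.14%). After Rnf122, Rnf39 had the largest log2 fold change of these, at -0.68 (adjusted p = 0.0898) by the authors' deposited table. Its CaKO libraries fell into a low pair (80.4 and 77.5 normalised counts in replicates 1 and 3) and a high pair (143 and 151). Rnf227 and Rnf152, the latter a ligase of the lysosomal membrane, were at 0.33 (adjusted p = 0.109) and 0.35 (adjusted p = 0.128) by the authors' deposited table. Rnf152 had the tightest libraries of the class, from 395 to 414. Rnf187 was the most abundant member per kilobase, at 2517 normalised counts, with -0.26 by the authors' deposited table. Rnf8, a ligase of the response to DNA breaks, Rnf10, Rnf126, Rnf165 and Rnf180 lay from -0.51 to -0.24 by the authors' deposited table, none with an adjusted p below 0.05. The gene Gm28043 overlaps Rnf8 on the same strand and shares near-identical transcript sequence with it.

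Of the 70 annotated Trim genes, most of which carry a RING domain, 5 were higher (7.14%, the share of all genes) and 1 was lower (1.43%, against 8.68%). Trim35 (chromosome 14: 66297031 to 66311424) had 2972, 2868, 3313 and 3026 normalised counts against an implied control level of 2583. Each library was above that level, within a narrow range. It rose 1.18-fold by the authors' deposited table (log2 fold change 0.24, implied SE 0.07, adjusted p = 0.0477), and the call ended without CaKO replicate 1 (0.25), 3 (0.19) or 4 (0.24). Centring on the median of the listed genes moved it to 0.46. Trim2, a neuronal ligase that acts on neurofilament light chain, was the most abundant Trim gene by count, at 7367 ± 821 (SD, n = 4), with 0.28 (adjusted p = 0.0794) by the authors' deposited table. Trim45 and Trim32 were at 0.52 (adjusted p = 0.091) and 0.22 (adjusted p = 0.152), and Trim66 at 0.24, by the authors' deposited table. The exception was Trim9, a brain-enriched ligase of axon growth, at 4768 ± 545 (SD, n = 4) and -0.28 by the authors' deposited table (adjusted p = 0.21).

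Subunits of cullin ligases were split. F-box proteins bind the target in these complexes. Fbxo6, which recognises glycoproteins, and Fbxl6 were at 0.50 (adjusted p = 0.0665) and 0.38 (adjusted p = 0.106), and Fbxw5 at -0.32 (adjusted p = 0.108), by the authors' deposited table. Fbxl19, which binds DNA with unmethylated CpG, and Fbxl18 were at -0.36 and -0.23 by the authors' deposited table. The scaffold Cul4b averaged 826 ± 73.5 (SD, n = 4), with 0.20 (adjusted p = 0.295 by the authors' deposited table), and was the 1 cullin of 8 that was listed. Ube3b, a HECT-type ligase that carries ubiquitin on its own cysteine, averaged 1851 ± 195 (SD, n = 4). Its log2 fold change of -0.20 (adjusted p = 0.282 by the authors' deposited table) became 0.02 when centred on the median of the listed genes. Replicate 4, at 2136, lay above the implied control level of 2122.

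Both deubiquitinases were higher without passing. Usp14 sits on the 19S particle and trims ubiquitin from substrates there. Its CaKO libraries had 3032, 2816, 3196 and 2660 normalised counts against an implied 2432, all above it. The log2 fold change was 0.27 (adjusted p = 0.197) by the authors' deposited table, and exons of Thoc1 on the opposite strand cover 26.0% of its own. Usp46, which acts on glutamate receptors of the AMPA type, had 2427, 1836, 2625 and 2168 normalised counts. Replicate 2 lay below the implied control level of 1926. Its log2 fold change of 0.23 had an adjusted p of 0.303 by the authors' deposited table. With an unadjusted p of 0.0461, Usp46 was next to Ube2j2 (0.0471 by the authors' deposited table) the member nearest to the limit for listing.

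**Figure D2:**
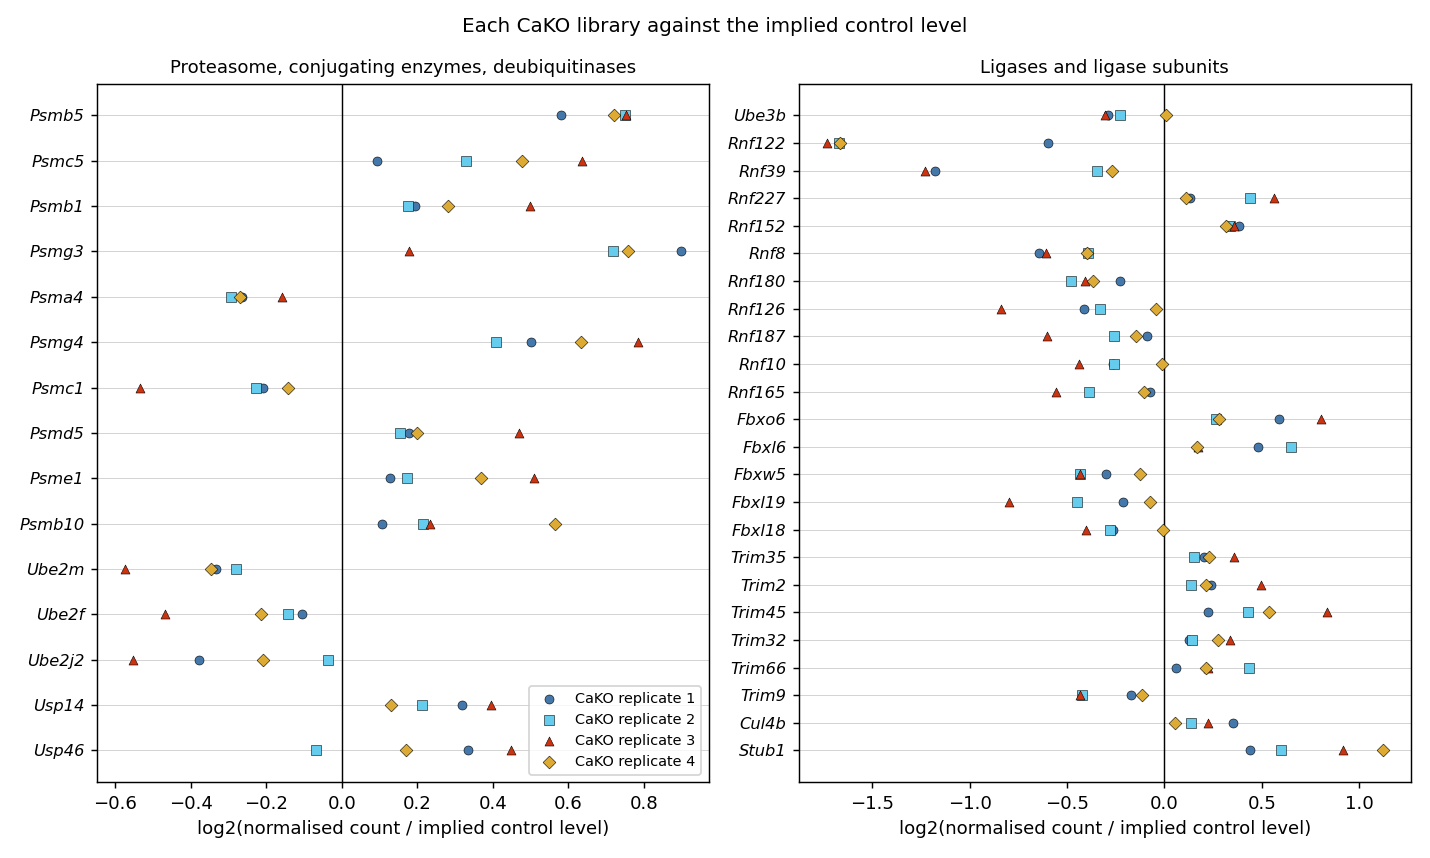
Log2 ratio of each CaKO library's normalised count to the implied control level (vertical line at 0) for the 39 listed members, 1 symbol per replicate. Replicate 3 (triangles) is the farthest out in most rows, and in 37 of 39 rows all 4 libraries lie on the same side of 0, the exceptions being Ube3b and Usp46.

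One library, CaKO replicate 3, was the farthest from the implied control level for most of these genes. For 37 of 39 members (94.9%) the implied control level lay outside the range of the 4 CaKO libraries, as it did for 94.5% of all listed genes in the adjustment. Replicate 3 was the library farthest out in the direction of the fold change for 28 of the 39 (71.8%), against 55.2% of all listed genes. Replicates 1, 2 and 4 were farthest out for 4, 5 and 2 members. Over the 8 higher proteasome genes, summed normalised counts were 5831, 6231, 7369 and 6732 in replicates 1 to 4, against an implied control sum of 5018. Over the 3 conjugating enzymes they were 2240, 2353, 1861 and 2219, against 2706. Replicate 3 was thus highest in the first group and lowest in the second, with the other libraries on the same side of the control sum. When each CaKO library was left out by an approximation, 34, 33, 20 and 37 of the 39 kept an unadjusted p below 0.05 without replicates 1, 2, 3 and 4. With the fold changes unchanged and only the standard error widened to that of 3 libraries, 33 kept it. Without replicate 3, 51.3% of members and 59.9% of all listed genes kept it. The wider standard error alone ended the calls of Psmc5 and Trim35, but not that of Ube2m. Psmb5, Stub1 and Rnf122 were called with each library left out, and Psmc5, Ube2m and Trim35 were not. Of those kept, Psmb5 has a near-identical copy, Stub1 shares exon sequence with Jmjd8, and Rnf122 had low counts. Why replicate 3 stood apart was not tested.

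**Figure D3:**
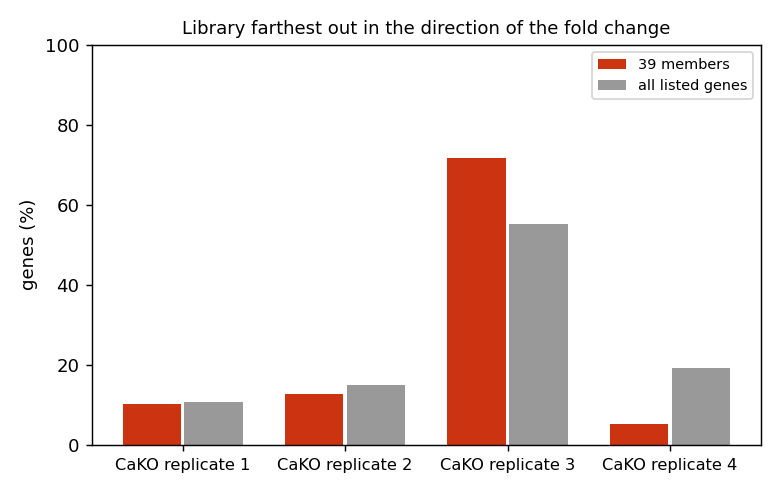
Share of genes (vertical axis, %) for which each CaKO library was the farthest out in the direction of the fold change, for the 39 members and for all listed genes in the adjustment. Replicate 3 holds 71.8% of the members and 55.2% of all listed genes.

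**Figure D4:**
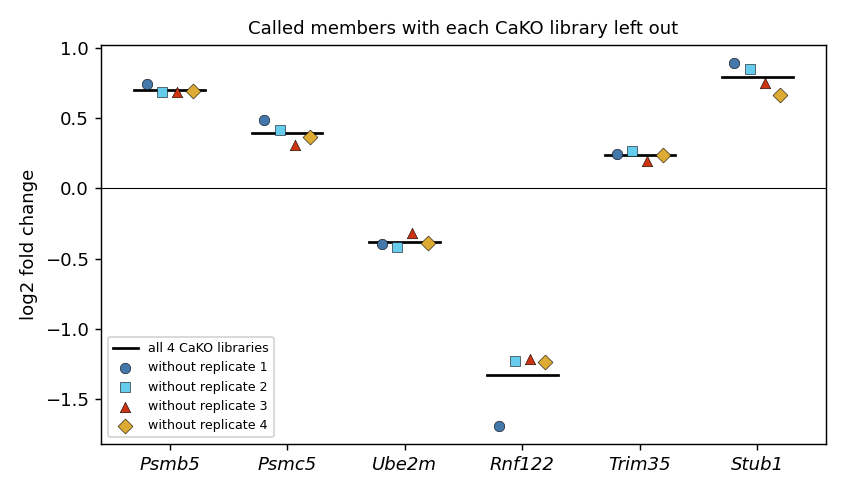
Log2 fold change (vertical axis) of the 6 called members with all 4 CaKO libraries (bar) and with each left out (symbols), the control level being held as the deposited fold change implies it. No value crosses 0, and Rnf122 moves the most, from -1.33 to -1.69 without replicate 1.

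The median GC content of the longest transcript was 51.9% for higher members and 54.6% for lower ones, against 49.1% and 52.2% for all listed genes. Median exon length was 3229 bases for higher and 4476 for lower members, against 3880 and 3841 for all listed genes. Neither difference was tested.

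Genes of the pathway outside the symbol rule included a fall and a rise among ubiquitin precursors. Of 207 further genes in lists of other proteasome components and regulators, ubiquitin precursors, activating enzymes, other ligases and deubiquitinases, chaperones and shuttles, 35 were listed (16.9%, against 15.8% of all genes), 18 higher and 17 lower. Among them 7 rose and 2 fell, which is 4.35% of the 207 against 3.24% of all genes. The risen were 3.38% of the 207 against 1.27% of all genes, and the fallen 0.97% against 1.97%. These differences were not tested. Ubb, a polyubiquitin gene that supplies much of a cell's ubiquitin, had 5152, 4937, 3969 and 6195 normalised counts in CaKO replicates 1 to 4, against an implied control level of 8169. It fell by 0.69 on the log2 scale by the authors' deposited table (implied SE 0.14, adjusted p = 0.000239). Fau, which encodes a ubiquitin-like protein fused to a ribosomal protein, had 1541, 1826, 2070 and 2266 against an implied 1209. It rose by 0.67 by the authors' deposited table (adjusted p = 7.4e-06). Both have near-identical copies that could share reads.

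Among the other lists, Uchl1, an abundant neuronal deubiquitinase, averaged 8561 ± 845 (SD, n = 4) and rose by 0.34 on the log2 scale (adjusted p = 0.032) by the authors' deposited table, and Yod1, another deubiquitinase, rose by 0.41 (adjusted p = 0.0439). Sae1, part of the enzyme that activates SUMO, rose by 0.39 (adjusted p = 0.0243 by the authors' deposited table). The cullin partners Dcun1d3, which binds NEDD8 enzymes, and Kbtbd7, a Cul3 adaptor, rose by 0.36 and 0.39, and the Hsp70 cochaperone St13 by 0.27, by the authors' deposited table, with adjusted p-values between 0.0342 and 0.0417. Nsfl1c, a cofactor of the p97 segregase, fell by 0.57 (adjusted p = 0.019 by the authors' deposited table). Of these 9 calls, those of Ubb and Fau held with each CaKO library left out. The other 7 ended without replicate 3, at log2 fold changes of -0.45 for Nsfl1c, 0.33 for Sae1, 0.30 for Uchl1, 0.34 for Dcun1d3, 0.32 for Kbtbd7, 0.22 for St13 and 0.38 for Yod1. Leaving out replicate 4 also ended those of Sae1 (0.36), Uchl1 (0.31) and Dcun1d3 (0.33), replicate 2 those of Nsfl1c (-0.53), Kbtbd7 (0.36), St13 (0.26) and Yod1 (0.39), and replicate 1 those of St13 (0.27) and Yod1 (0.37). For St13 the value without replicate 1 was no smaller than the deposited one. Which of these 7 calls the wider standard error would end by itself is not given here.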

How the data were processed

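RNA from the mPFC of 4 CaKO and 4 control mice was poly-A selected and sequenced as 100 bp paired ends, per the labels' protocols. TopHat2 2.0.12 aligned the reads to GRCm38 (mm10) and HTSeq 0.6.1 counted them, per the series' design text. The submitters' processing notes also name DESeq2 1.30.1, with no role. The library values are a signal that the authors deposited under the name FPKM: in each library 100% of them are whole multiples of 1 step (tolerance 0.01), so they are read counts divided by 1 factor per library. The log2 fold changes, p-values and adjusted p-values are the authors', as deposited. All 18 genes at 0 in every CaKO library have negative fold changes, which sets the direction as CaKO over control. The adjusted p-values follow Benjamini-Hochberg over 12938 genes (largest relative difference 0.005), except for 325 of the 2372 genes listed at 1, none of them a member.

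The fit to all 8 libraries was not run because the control values were not used here. "Rose" and "fell" stand for an adjusted p below 0.05 in the deposited table, "higher" and "lower" for an unadjusted p below 0.05. Standard errors and 95% intervals are those implied by the deposited p under a two-sided normal test. Leaving out a CaKO library recomputed the fold change against the implied control level with the standard error widened for 3 libraries, and a call was kept at a p up to 0.00162, the largest of a called gene. Losses of calls can be seen this way, gains cannot. These steps were run on simulated data, where the implied standard error and the left-out fold change are recovered by construction. Whether calls are kept or lost as in a refit with 3 CaKO libraries was not tested. Total depth is unknown, and counting error was not separated from differences between mice. Genes were named by position in GENCODE M21 (2266 exact matches, 89 by at least 80% mutual overlap, 17 unmatched), and 35 and 4 of the members matched in these 2 ways. Near-identical copies were found with BLAST 2.17.0 (at least 98% identity over 200 bp and 50% of a transcript). The members, lists, named genes (every called member, the 3 with the smallest p of the rest in each symbol class, and every called gene of the wider lists) and tests were chosen with earlier results of these data known. Members beyond that rule are named as values only. Alternatives covered the threshold, matching, low counts, overlapping genes, centring and each CaKO library.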

Additional observations from a re-analysis of the deposited data

Results flagged for a closer look

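Among the 39 members, 2 had a CaKO library far from the other 3, about as many as the 1.95 expected when chance picks 1 in 20 groups. For Rnf122 it was replicate 1, at 63.3 normalised counts against 28.8 to 30.2 in the others. For Psmd5 it was replicate 3, at 1176 against 945 to 974. The cause was not tested in either case.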

How the results depend on the processing

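The counts of 4 risen and 2 fallen members became 2 and 2 at an adjusted p below 0.01, and 9 and 3 below 0.1. The share of all genes called under these or the following settings is not given. The counts therefore cannot be read as particular to the members. A minimum CaKO mean of 50 normalised counts left 4 and 1, since Rnf122 lay below it. Leaving out the 7 members with overlapping exons or near-identical copies left 2 and 2, since Psmb5 and Stub1 were among the 7. The risen members left, Psmc5 and Trim35, were those whose calls ended when single CaKO libraries were left out. Their calls also ended under the standard error of 3 libraries alone. Centring on the median of the listed genes (-0.22) gave 21 and 1 calls, while the counts at an unadjusted p below 0.05 went from 21 higher and 18 lower to 21 and 1. This median is taken over genes with a p below 0.05, so it is not that of all genes. Without the matching share of all listed genes, the centred counts cannot be read as particular to the members. Ube2m was the fallen member lost under centring, at -0.16. That setting reversed Ube3b, from -0.20 to 0.023. With each CaKO replicate left out, risen members ranged from 2 to 4, fallen from 1 to 2, higher from 13 to 19 and lower from 7 to 18. The standard error of 3 libraries alone, an alternative chosen after seeing the data, left 2 risen and 2 fallen. Exact matches alone left 3 and 2. No paired analysis was possible because no control value entered the analysis. Total depth is unknown, so its part in the width of the intervals was not tested.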
